A study of Macaca fascicularis with 3 samples.

Results

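Potassium channel genes were described in the nuclei and cells of 2 macaque muscles, by the myosin chain that leads in a nucleus and in mural, endothelial and glial barcodes. The members were all features whose symbol starts with KCN, other than KCNMA1 and KCNN2. This gave 93 genes of 52185 distinct feature names in the series, of which 76 of 38550 features stood in both tables of nuclei and 93 of 33368 in the table of cells. By type, 40 members form voltage-gated channels or their silent subunits (32 in the tables of nuclei), 15 inward rectifiers (11) and 15 two-pore channels (14). Another 6 are calcium- or sodium-activated channels or their relative KCNU1 (5), and 17 are auxiliary subunits or regulators (14). The tissue was extraocular muscle (EOM), which turns the eyeball, and quadriceps femoris muscle (QFM), a thigh muscle, of the cynomolgus macaque Macaca fascicularis. The 3 libraries, 1 per group, were single cells of EOM, nuclei of EOM and nuclei of QFM. No treatment is named, and the labels give neither the number nor the age or sex of the animals. The QFM sample is titled as nuclei although the names of its files say cells, and its median mitochondrial share was 0.190%, against 0.459% in EOM nuclei and 11.9% in EOM cells. Whether the QFM library held nuclei was not tested beyond this share.

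Potassium channels let potassium leave or enter a cell and so set the resting potential and end each action potential. In muscle fibres, voltage-gated members repolarise the membrane after each spike, inward rectifiers and two-pore channels hold it near rest, and calcium-activated members link calcium to the membrane. Auxiliary subunits set how many channels reach the surface and how fast they open and close. In vessels, channels of mural cells set arterial tone, and in Schwann cells they take up potassium around axons.

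With 1 library per group no test between groups was possible, and the difference between EOM and QFM cannot be told apart from a difference between the libraries or animals. Levels are in CPM, the UMIs (unique molecules) of a gene over all UMIs, both summed over a class of barcodes and scaled to 1000000. All intervals are 95% intervals that cover counting error only. Levels were compared within a gene and not between genes, because the counts are not per length. A gene was measured in a comparison with at least 20 UMIs over both classes, and was counted as apart when the levels differed by at least 2-fold.

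After filters and doublet removal, 13977 EOM nuclei had a median of 2811 UMIs, 10525 QFM nuclei a median of 4508 and 7111 EOM cells a median of 1142. The 2 libraries of nuclei shared 51 barcodes, 0.309% of those of EOM and 0.408% of those of QFM. Myonuclei were barcodes with at least 10 UMIs of MYH3, MYH7, MYH13 and MYH15 together, named by the chain with most UMIs. EOM had 4253 MYH13-led, 1481 MYH15-led, 922 MYH3-led and 171 MYH7-led nuclei, and QFM had 4276 MYH3-led and 2687 MYH7-led nuclei and none led by MYH13 or MYH15. MYH13 is the superfast chain of eye muscle, MYH15 a slow-tonic chain, MYH7 the slow chain and MYH3 a developmental chain. The rule uses these 4 chains, and MYH1, MYH2 and MYH8 have no symbol in the tables of nuclei, so "MYH3-led" is a rule and not a fibre type. Mural (195 EOM and 214 QFM nuclei), endothelial (1059 and 965) and glial barcodes (60 and 24) carried at least 5 UMIs from at least 3 markers of that list. Of the named markers, 10 of 12 mural, 12 of 12 endothelial and 13 of 14 glial reached 20 CPM in EOM, and 11 of 12, 12 of 12 and 11 of 14 in QFM. Myofibre genes set apart as a check for free RNA (NEB, DMD, TRDN, MYBPC1 and ACTA1) summed to 10.4% of their myonuclear level in EOM endothelial nuclei and 3.97% in QFM endothelial nuclei. The same sum came to 16.1% and 7.58% in mural nuclei, and to 25.7% and 11.8% in glial nuclei. Whether mural or glial nuclei transcribe any of these genes themselves was not tested, so the sum is not a measure of free RNA alone.

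Potassium channel genes were mostly higher in the myonuclei of EOM than in those of QFM. Of 56 members measured over all 6827 EOM and 6963 QFM leading-chain myonuclei, 33 were at least 2-fold higher in EOM, 5 at least 2-fold lower and 18 within 2-fold. Of all 18817 features measured, 32.9% were at least 2-fold higher and 9.26% at least 2-fold lower. The median log2 ratio was 1.47 over the members and 0.39 over all features, and scaling by the median of ratios moved the latter to 0.12. Relative to the median of all features, 28 members were at least 2-fold higher and 8 lower, where 4746 and 2945 of the 18817 features were. Voltage-gated members had the highest share, with 16 of 23 higher, 2 lower and a median of 2.19. Of the rest, 6 of 10 two-pore, 4 of 7 inward rectifier, 2 of 5 calcium- or sodium-activated and 5 of 11 auxiliary members were higher. KCNU1, counted with the calcium- or sodium-activated type by its symbol, is among the higher members of that type (1.25). KCNK2, KCNS3, KCNJ14 and KCNRG were among those lower in EOM.

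Markers of other cell types were also higher in EOM myonuclei. The summed level of 8 of 10 marker lists was higher there, among them endothelial (273 CPM in EOM and 73.2 in QFM), fibroblast (222 and 61.4), satellite cell (176 and 39.7), neuronal (74.2 and 9.36), glial (64.7 and 11.1), macrophage (54.2 and 13.9), mast cell (44.8 and 1.77) and T or NK cell markers (20.4 and 5.66). The mural (132 and 235) and adipocyte lists (5.60 and 6.56) were lower. Of the 12 named mural markers, 2 reached 20 CPM in EOM and 1 in QFM myonuclei. The mural sum of MYH3-led QFM nuclei came mostly from LMOD1, as given below. The defining glial marker FOXD3 was at 0 in the myonuclei of both muscles, and CIDEC and KLRD1 were at 0 in QFM. The part of these cells' RNA in the channel differences was not tested.

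**Figure D1:**
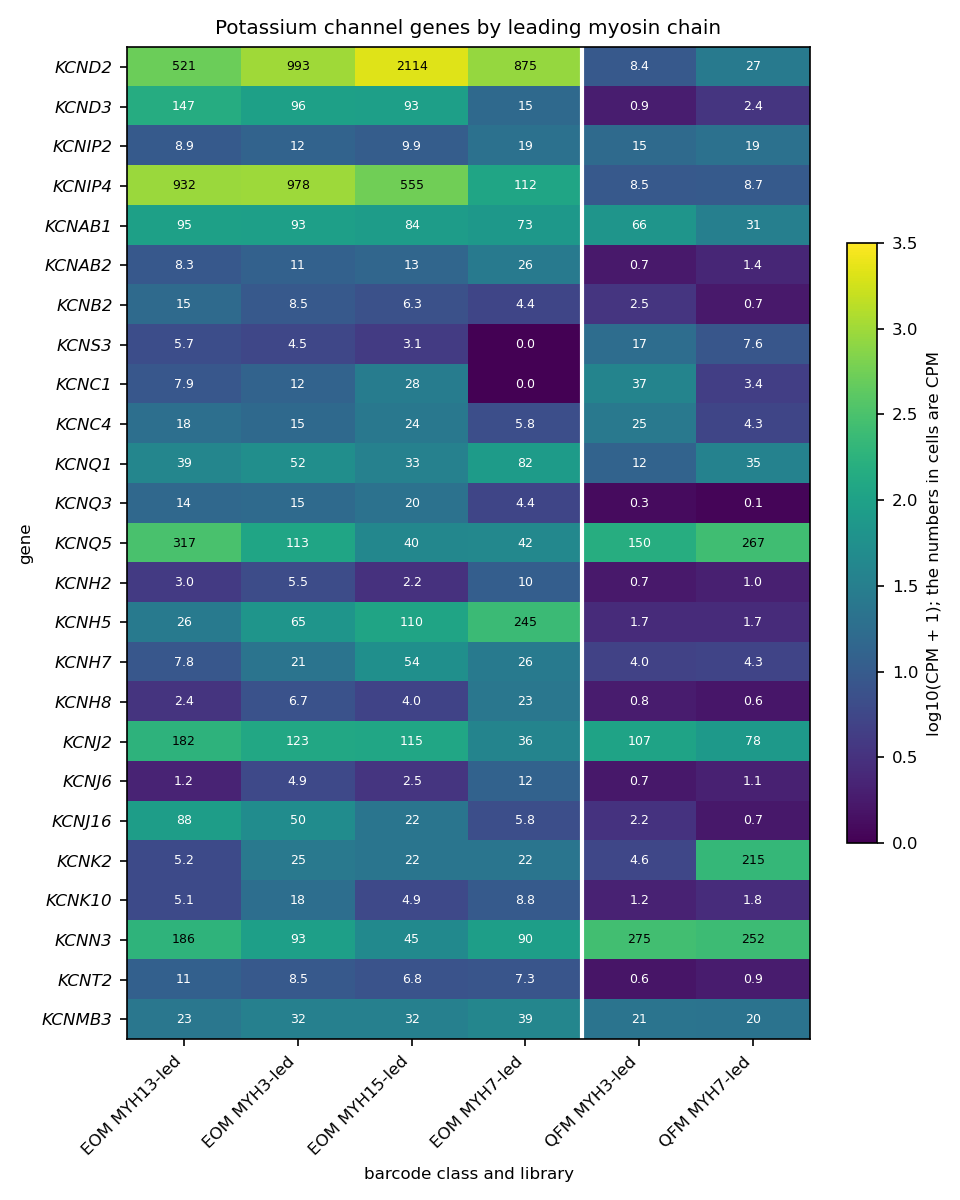
Levels in CPM (numbers and colour, the colour on a log10 scale with 1 CPM added) of 25 members with at least 10 CPM in some leading-chain class of myonuclei, with 4 classes of EOM and 2 of QFM as columns. KCND2, KCND3 and KCNIP4 are above 10 CPM in each of the 4 EOM classes and, for KCND3 and KCNIP4, below 10 CPM in both QFM classes, while KCNK2 is above 200 CPM in MYH7-led nuclei of QFM.

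The A-type channel genes KCND2 and KCND3 and their partner KCNIP4 were among the members with the widest differences between the muscles. KCND2, which forms the fast-inactivating A-type current, was at 521 CPM in MYH13-led, 993 in MYH3-led, 2114 in MYH15-led and 875 in MYH7-led nuclei of EOM. In QFM it was at 8.41 CPM in MYH3-led and 27.0 in MYH7-led nuclei. Every EOM class thus lay above both QFM classes, with a log2 ratio of 5.87 (5.76 to 5.98) over all myonuclei. At least 1 KCND2 UMI was seen in 64.7% of EOM myonuclei (median 3675 UMIs) and 4.87% of QFM myonuclei (median 5194 UMIs). After every nucleus was thinned to 1000 UMIs the shares were 41.3% (40.1 to 42.5, exact Clopper-Pearson) and 1.12% (0.887 to 1.40). In endothelial nuclei, which should lack myofibre channels, KCND2 was seen in 21.1% in EOM (9.95% thinned, median 2364 UMIs) and 0.518% in QFM (0.212% thinned, median 3559 UMIs).

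KCND3, the other KCND gene with a symbol in the tables of nuclei, was at 147 CPM in MYH13-led, 96.5 in MYH3-led, 92.6 in MYH15-led and 14.6 in MYH7-led nuclei of EOM. Its QFM levels were 0.890 CPM in MYH3-led and 2.44 in MYH7-led nuclei, a log2 ratio of 6.31 (5.95 to 6.69) over all myonuclei. KCNIP4, a calcium-binding subunit of A-type channels, was at 932, 978, 555 and 112 CPM in the MYH13-, MYH3-, MYH15- and MYH7-led nuclei of EOM. It was at 8.50 and 8.74 CPM in the MYH3- and MYH7-led nuclei of QFM. The log2 ratio of KCNIP4 was 6.59 (6.43 to 6.74), and 5.72 when called doublets were kept. KCNIP2, another subunit of this kind, did not share the difference, with 9.80 CPM in all EOM and 16.7 in all QFM myonuclei (log2 ratio -0.77). KCNIP4 was seen in 43.9% of EOM and 3.99% of QFM myonuclei (25.4% and 0.906% thinned), and in 18% and 2.8% of endothelial nuclei (8.86% and 0.423% thinned).

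Among the other voltage-gated members, KCNB2, a delayed rectifier gene, was at 12.0 CPM in all EOM and 1.72 in all QFM myonuclei (log2 ratio 2.80). KCNS3, a silent subunit that joins delayed rectifiers, was at 4.83 CPM in EOM and 12.7 in QFM (log2 ratio -1.40).

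Of the KCNQ genes, whose channels carry slow sub-threshold currents, KCNQ3 was higher in EOM. It was at 15.3 CPM in all EOM myonuclei and 0.200 in QFM (log2 ratio 6.26, 5.27 to 7.48, 4.96 with thinned counts). KCNQ5 was at 219 and 201 CPM and KCNQ1 at 40.3 and 22.1 CPM, both within 2-fold. KCNQ1 passed 2-fold in 2 alternatives, at 1.26 with thinned counts and 1.04 with the mean of per-nucleus CPM.

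All 8 KCNH genes, of the ether-a-go-go type, were measured and at least 2-fold higher in EOM. KCNH5 was at 26.2 CPM in MYH13-led, 65.2 in MYH3-led, 110.3 in MYH15-led and 245 in MYH7-led nuclei of EOM, and at 1.69 and 1.70 CPM in the 2 classes of QFM. Its log2 ratio over all myonuclei was 5.06. KCNH7, an erg-type gene, was at 20.8 CPM in all EOM and 4.09 in all QFM myonuclei (2.35), KCNH8, an elk-type gene, at 3.83 and 0.749 (2.36, 4.29 with thinned counts), KCNH1 at 5.56 and 1.20 (2.22) and KCNH2 at 3.28 and 0.848 (1.95). The fast-spiking type genes KCNC1 (13.1 and 22.4 CPM) and KCNC4 (18.8 and 15.8 CPM) stayed within 2-fold, although scaling by the median of ratios took KCNC1 to -1.05. KCNA1, of the shaker type, was low, at 2.87 CPM in EOM and 0.923 in QFM.

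Among inward rectifiers, KCNJ16 was at least 2-fold apart over all myonuclei and KCNJ2 was not. KCNJ16, a subunit that joins other rectifiers, was at 88.3, 49.7, 22.1 and 5.84 CPM in MYH13-, MYH3-, MYH15- and MYH7-led nuclei of EOM, and at 2.23 and 0.681 CPM in MYH3- and MYH7-led nuclei of QFM. Its log2 ratio over all myonuclei was 5.41. KCNJ2, the classical strong rectifier of muscle, was at 155 CPM in all EOM and 94.1 in all QFM myonuclei (0.72). Its log2 ratio was 0.76 between MYH13-led EOM and MYH3-led QFM nuclei and -1.09 between MYH7-led nuclei of both muscles. KCNJ6, a subunit opened by G proteins, reached 11.7 CPM in MYH7-led nuclei of EOM and stayed at 0.668 and 1.08 CPM in QFM. KCNJ8, which forms the pore of vascular ATP-sensitive channels, was at 1.77 CPM in EOM and 0.150 in QFM (3.56), and KCNJ1 at 2.76 and 0.324 (3.09). KCNJ8 lay far below its level in mural nuclei in both muscles.

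The two-pore gene KCNK2, a mechanosensitive leak channel, was high in 1 class of QFM. It was at 215 CPM in MYH7-led nuclei of QFM and 4.63 in MYH3-led nuclei, and between 5.15 and 25.2 CPM in the 4 EOM classes. The KCNK2 log2 ratio of EOM over QFM was -3.03 over all myonuclei. KCNK10, a close relative, was at 6.67 CPM in EOM and 1.42 in QFM (2.23), with the highest level, 17.6 CPM, in MYH3-led nuclei of EOM. KCNK1 (2.54 and 0.125 CPM), KCNK12 (1.11 and 0.225) and KCNK6 (2.58 and 1.05) were low in both muscles and at least 2-fold higher in EOM.

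The calcium-activated gene KCNN3, a small-conductance channel, was at 139 CPM in EOM and 265 in QFM (-0.93), and passed 2-fold when scaled by the median of ratios (-1.20) or when marker-positive barcodes were kept in the myonuclei (-1.03). Within EOM it ran from 186 CPM in MYH13-led to 45.5 in MYH15-led nuclei. KCNT2, a sodium-activated channel, was at 9.43 CPM in EOM and 0.699 in QFM (3.75, 4.99 with thinned counts). Of the beta subunits of voltage-gated channels, KCNAB2 was at 10.2 and 0.998 CPM (3.36) and KCNAB1 at 91.7 and 50.8 (0.85). KCNAB1 passed 2-fold in 5 of the alternatives, at 1.05 to 1.65. Its level in EOM fibroblast-marker nuclei was 2092 CPM. KCNMB3, a beta subunit of large-conductance channels, was at 26.9 and 20.9 CPM, and KCNMB4 at 4.64 and 1.32 (1.81).

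**Figure D2:**
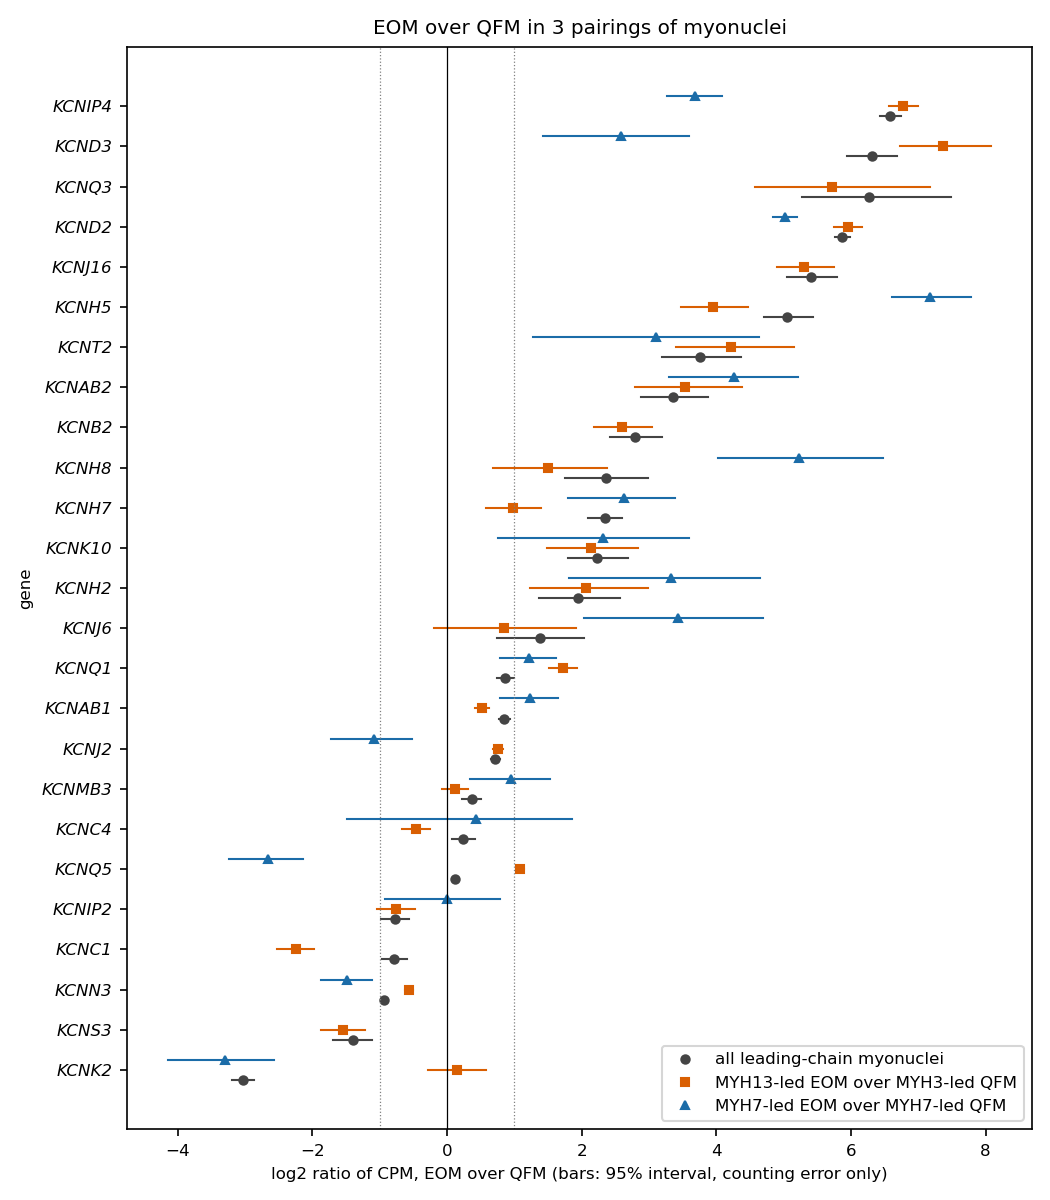
Log2 ratio of CPM, EOM over QFM, of the same 25 members, for all leading-chain nuclei, MYH13-led EOM over MYH3-led QFM nuclei and MYH7-led nuclei of both muscles; bars are 95% intervals for counting error, and pairs under 20 UMIs or with a class at 0 are not drawn. KCND2, KCNIP4 and KCNH5 lie right of 3 in each of the 3 pairings.

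Pairing classes by chain gave similar counts. These pairings share libraries with the comparison of all myonuclei and are not independent of it. Between MYH13-led EOM and MYH3-led QFM nuclei, 30 of 50 measured members were at least 2-fold higher in EOM and 5 lower, where 31.3% and 10.2% of all 17363 features were. The median was 1.40 over the members and 0.32 over all features. KCND3 had the highest log2 ratio of the members named in this pairing, 7.36 (6.73 to 8.08). KCNC1 was lower in EOM here, at 7.91 against 37.3 CPM (-2.24, -1.54 with per-nucleus means), and KCNK2 was close to even (0.15), but -1.64 with called doublets kept. KCNQ5 was 1.08, and between 0.85 and 0.96 with marker-positive barcodes kept, with doublets kept, with the median of ratios or with per-nucleus means.

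Between MYH7-led nuclei of the 2 muscles, 17 of 29 measured members were at least 2-fold higher in EOM and 5 lower, where 29.1% and 10.3% of all 13662 features were. Scaling by the median of ratios made this 14 higher and 6 lower. Relative to the median of all features the members also gave 14 and 6, where 2890 and 2244 of the 13662 features were higher and lower. KCNH5 was at 245 against 1.70 CPM (7.17, 6.60 to 7.78), and 6.17 where the leading chain held at least 60% of the chain UMIs. KCNH8 was at 23.3 against 0.625 CPM (5.22) and KCND2 at 875 against 27.0 (5.02). KCND3 was 2.58 (1.42 to 3.59) here, and 1.95 with at least 20 chain UMIs. KCNIP4 was 3.68, and 2.74 with called doublets kept. KCNK2 (-3.30), KCNQ5 (-2.66), KCNN3 (-1.48) and KCNJ2 (-1.09) were among the lower members, and KCNJ2 came to -0.94 with 3 UMIs from 2 markers as the marker rule and -2.92 with the 60% rule. The EOM class is small, 171 nuclei, and its neuronal marker sum was 312 CPM, its satellite sum 391 and its glial sum 144, against 73.7, 163 and 57.6 in MYH13-led nuclei. The part of these markers in the MYH7-led values was not tested.

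Within EOM, where both classes come from 1 library, MYH15-led nuclei differed from MYH13-led nuclei in 20 of 46 measured members. Of these, 8 were at least 2-fold higher and 12 lower, where 3.42% and 7.52% of all 16530 features were. The higher ones were KCNH7 (53.7 against 7.85 CPM, log2 ratio 2.77, 2.48 to 3.08), KCNH5 (2.08), KCNK2 (2.07), KCND2 (2.02, 1.98 to 2.06), KCNC1 (28.3 against 7.91 CPM, 1.84), KCNH1, KCNMB2 and KCNJ6. KCNJ6 rested on few UMIs, with a log2 ratio of 1.05 (0.00 to 2.07), and turned to -0.10 with 3 UMIs from 2 markers as the marker rule. With per-nucleus means KCNH7 was 1.99 and KCNC1 1.06, and with marker-positive barcodes kept KCNK2 was 1.37. The lower ones were led by KCNA1 (0.464 against 4.37 CPM, -3.24, -5.55 to -1.63) and KCNQ5 (40.1 against 317 CPM, -2.98, -3.17 to -2.80). KCNN3 (-2.04) and KCNJ16 (from 88.3 to 22.1 CPM) were about 4-fold lower, and KCNB2 was -1.26. The lower members also included KCNK17, KCNJ1, KCNH3, KCNE3, KCNK1 and KCNN1, which had 2 to 8 UMIs each in MYH15-led nuclei. KCNA1 had 3 UMIs there. The intervals of KCNH3 (-3.07 to 0.01), KCNE3 (-3.26 to 0.26) and KCNN1 (-2.51 to 0.07) include 0. KCNIP4 (-0.75), KCND3 (-0.66) and KCNJ2 (-0.66) were lower by less than 2-fold. KCNAB1 moved from -0.17 to -1.28 with marker-positive barcodes kept.

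Sorting EOM myonuclei by the MYH15 share of their chain UMIs in 5 steps, which uses the same nuclei, gave an order for some members and none for others. KCND2 was at 378, 883, 1639, 2191 and 2716 CPM in nuclei with a share of 0 to 5%, 5 to 25%, 25 to 50%, 50 to 75% and 75 to 100%. KCNQ5 went down over the same steps, at 360, 135, 53.8, 38.4 and 31.2 CPM. KCNH5 was highest in the last step but did not rise at each step, at 26.6, 78.5, 58.7, 115.5 and 333 CPM. KCNJ16 went from 100.5 CPM in the first to 6.23 in the last, where it had 2 UMIs. Like KCNH5, some other members did not follow the order. KCNIP4 was at 1042, 693, 497, 661 and 545 CPM, and KCNN3 at 214, 101, 38.1, 48.0 and 87.2. KCNK2 was at 4.88, 23.1, 17.2, 12.1 and 77.9 CPM, and KCNC1 at 3.71, 18.0, 16.6, 37.0 and 18.7. The last step held 71 nuclei and the first 3026, and median depths were 4230, 2072, 3673, 4106.5 and 4373 UMIs.

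**Figure D3:**
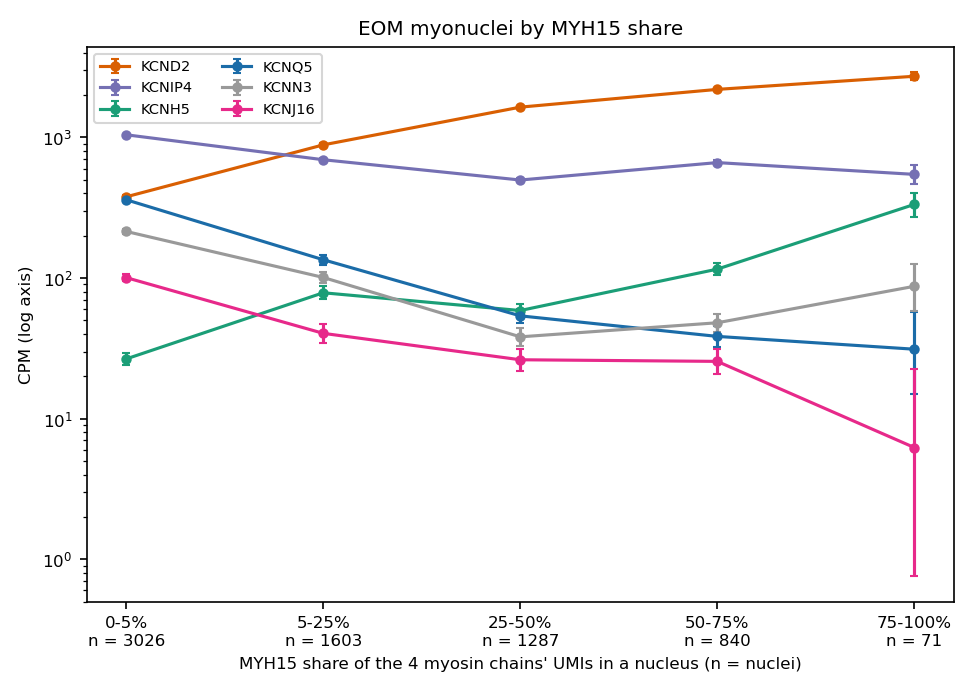
CPM (log axis) of 6 potassium channel genes in EOM myonuclei sorted by the MYH15 share of the UMIs of the 4 myosin chains in 5 steps; bars are 95% Poisson intervals for counting error. KCND2 goes up from 378 to 2716 CPM and KCNQ5 down from 360 to 31.2 CPM.

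The MYH7-led nuclei of EOM were mixed in this respect. In the 73 of them with at least 3 MYH15 UMIs, KCND2 was at 1425 CPM, against 370 in the 98 with fewer. KCNH5 was at 326 and 171 CPM and KCNK2 at 36.5 and 8.40. KCNIP4, at 125 and 101 CPM, was close in both. Against MYH13-led nuclei of the same library, the whole MYH7-led class was lower in KCNJ16 (-3.92), KCND3 (-3.33), KCNIP4 (-3.05), KCNQ5 (-2.90) and KCNJ2 (-2.32), and higher in KCNH8 (3.28), KCNJ6 (3.28), KCNH5 (3.23) and KCNK2 (2.09). Some of these rest on few UMIs in the MYH7-led class, 4 for KCNJ16, 8 for KCNJ6, 10 for KCND3, 15 for KCNK2 and 16 for KCNH8. Shares over all features are not given for this contrast.

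In QFM, MYH7-led nuclei differed from MYH3-led nuclei in 14 of 38 measured members. The 4 that were at least 2-fold higher were KCNK2, KCND2, KCNQ1 and KCND3, and 10 were lower, where 6.47% and 10.5% of all 15848 features were. KCNK2 had by far the widest gap, with 215 against 4.63 CPM and a log2 ratio of 5.54 (5.26 to 5.83), 3.46 with called doublets kept. It was seen in 39.4% of MYH7-led nuclei (14.3% thinned, 13 to 15.7), 1.5% of MYH3-led nuclei (0.445% thinned) and 0.725% of endothelial nuclei (0.212% thinned), with median depths of 5907, 4715.5 and 3559 UMIs. KCND2 (1.68), KCNQ1 (35.1 against 11.8 CPM, 1.57) and KCND3 (1.46) were higher by less. The members that were lower in MYH7-led nuclei were led by KCNC1, at 3.41 against 37.3 CPM (-3.45, -5.14 with thinned counts), and KCNC4, at 4.31 against 24.9 (-2.53), both genes of fast-spiking channels. KCNB2 (-1.76), KCNMB4 (-1.75), KCNJ16 (-1.71), KCNS3 (-1.13) and KCNAB1 (-1.10) were also lower, as were KCNE3 and KCNN1. KCNS3 was -0.72 with thinned counts. Mural markers summed to 366 CPM in MYH3-led and 68.5 in MYH7-led nuclei of QFM, of which LMOD1 made 343 and 42.5, and 9 of the 10 marker lists were lower in MYH7-led nuclei. KCNAB1 and KCNB2 were higher in QFM mural nuclei than in myonuclei, and the part of mural RNA in these differences was not tested. KCNA1 had no UMI in MYH7-led nuclei and 1.65 CPM in MYH3-led nuclei. KCNN3 (-0.12) and KCNJ2 (-0.46) were within 2-fold between the 2 classes.

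Mural nuclei, from pericytes and vascular smooth muscle, were marked by KCNAB1, KCNT2, KCNJ8 and KCNE4. KCNAB1 was at 1732 CPM in EOM and 2372 in QFM mural nuclei, log2 ratios of 4.24 and 5.55 over the myonuclei of the same library. It was as high in fibroblast-marker nuclei (2092 and 1643 CPM), and the fibroblast markers summed to 483 and 797 CPM in mural nuclei. KCNT2 was at 543 CPM in EOM and 137 in QFM (5.85 and 7.62 over myonuclei). KCNJ8 was alike in the 2 muscles, at 70.2 and 68.6 CPM, with a log2 ratio of 0.03 (-0.63 to 0.68), -0.58 with thinned counts. KCNE4, an inhibitory subunit, was at 18.0 and 32.9 CPM. The ABCC9 gene, whose product is the sulfonylurea receptor that joins KCNJ8, was at 780 and 713 CPM in the same nuclei.

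**Figure D4:**
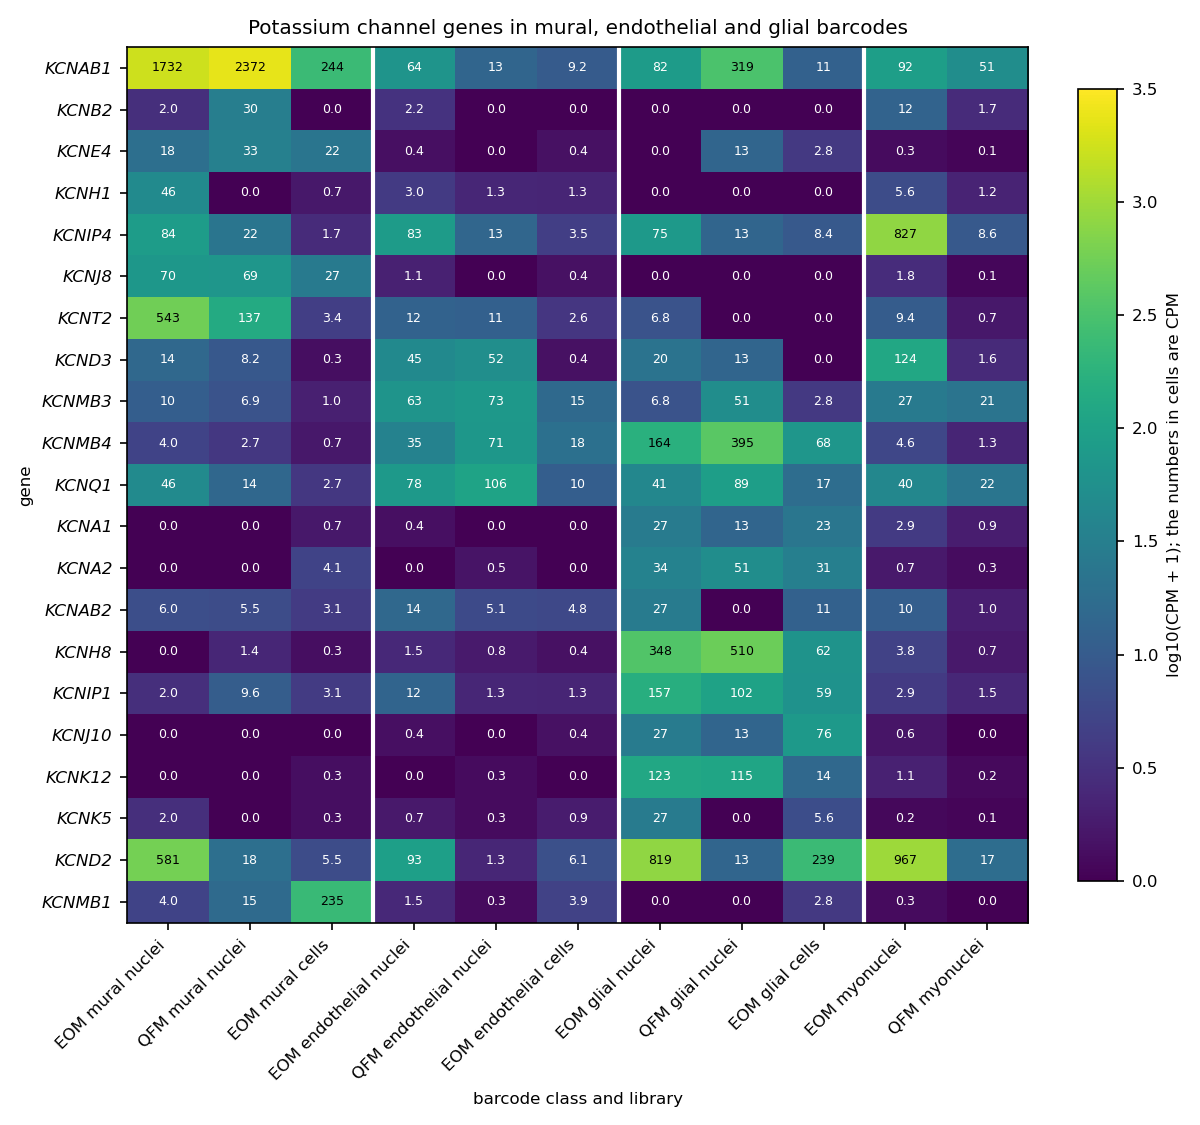
Levels in CPM (numbers and colour, the colour on a log10 scale with 1 CPM added) of 21 members, 19 named by rule in mural, endothelial or glial barcodes and KCND2 and KCNMB1 beside them, with the mural, endothelial and glial classes of the 3 libraries and the myonuclei of EOM and QFM as columns. KCNAB1, KCNJ8 and KCNE4 are high in mural and KCNH8, KCNK12 and KCNMB4 in glial nuclei of both muscles.

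Between the mural nuclei of the 2 muscles, 9 of 13 measured members were apart, 8 higher in EOM and 1 lower, where 10.4% and 13% of all 7811 features were. KCND2 was at 581 CPM in EOM and 17.8 in QFM (5.03, 4.23 to 5.95, and 4.41 to 5.85 over the alternatives that moved it most), and KCNIP4 at 84.2 and 21.9 (1.94, 1.13 with called doublets kept). The EOM mural level of KCND2 was 60.1% of that in EOM myonuclei and that of KCNIP4 10.2%, where the myofibre check genes were at 16.1%. The part of free RNA in these values was not tested further. KCNT2 (1.99), KCNQ1 (1.75) and KCNN3 (1.38) were also higher in EOM. KCNN3 came to 0.77 with 3 UMIs from 2 markers. KCNH1 was at 46.1 CPM in EOM and had no UMI in the 214 QFM mural nuclei, which is under the floor of 3 UMIs (4.12 CPM). Against that floor EOM was at least 11.2-fold higher, a log2 ratio of 3.49 with a lower counting limit of 3.07. KCNB2 was the lower member, with 1 UMI (2.00 CPM) in EOM and 30.2 CPM in QFM (-3.91, -9.28 to -1.28).

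In endothelial nuclei, KCND3, KCNMB3 and KCNQ1 met the naming rule and were within 2-fold between the muscles. KCNQ1 was at 78.0 and 105.7 CPM, KCNMB3 at 63.4 and 73.3 and KCND3 at 44.8 and 52.0. KCND3 was 5.05 above the QFM myonuclei on the log2 scale and below those of EOM. KCNMB4 met the rule too and was at 34.7 and 70.9 CPM (-1.03). KCNN4, the intermediate-conductance channel known from endothelium, was below the naming rule at 9.32 and 11.6 CPM, and is named here after its values were seen.

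Over all 23 members measured in endothelial nuclei, 9 were at least 2-fold higher in EOM and 2 lower, where 11.5% and 6.3% of all 12480 features were. KCND2 (92.9 against 1.35 CPM, 6.11), KCNG3 (4.38), KCNIP1 (12.3 against 1.35, 3.19), KCNIP4 (83.2 against 13.2, 2.65), KCNAB1 (64.2 against 12.9, 2.31), KCNQ5 (1.95), KCNH5 (1.72) and KCNAB2 (1.47) were among the higher members. With called doublets kept KCNAB1 came to 0.50 and KCNIP4 to 1.65. KCND2 and KCNIP4 in EOM endothelial nuclei stood at 9.60% and 10.1% of their myonuclear level, beside 10.4% for the myofibre check genes. KCNQ5 was at 19.8 CPM in EOM endothelial nuclei and 219 in EOM myonuclei, and KCNH5 at 7.09 and 56.5. KCNAB1 was at 64.2 and 91.7 CPM, KCNAB2 at 14.2 and 10.2 and KCNIP1 at 12.3 and 2.95. The part of free RNA in these values was not tested. KCNE3 (-1.85) and KCNMB4 were the lower members.

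Glial nuclei, which carry Schwann cell markers, were few, so that 1 UMI was worth 6.83 CPM in EOM and 12.8 in QFM. KCNH8, KCNK12, KCNIP1 and KCNMB4 were high in both muscles. KCNH8 was at 348 CPM in EOM and 510.2 in QFM (-0.55, -1.18 to 0.08, and 0.22 with thinned counts), which is 6.51 and 9.41 above the myonuclei on the log2 scale. KCNMB4 was at 164 and 395 CPM (-1.27), KCNIP1 at 157 and 102 (0.62) and KCNK12, a two-pore gene, at 123 and 115 (0.10). Of the genes known from the nodal region of myelinated axons, KCNA2 was at 34.1 and 51.0 CPM and KCNA1 at 27.3 and 12.8, and the glial rectifier KCNJ10 at 27.3 and 12.8, from 1 to 5 UMIs each. KCNQ1 (41.0 and 89.3 CPM) and KCNMB3 (6.83 and 51.0) also met the naming rule. KCNK5 and KCNAB2, at 27.3 CPM each in EOM, had no UMI in QFM, where up to 38.3 CPM would be allowed. Of the neuronal list only SYT1 was seen in glial nuclei, at 4172 and 3993 CPM.

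Of 7 members measured in glial nuclei, 1 was at least 2-fold higher in EOM and 2 lower, where 12.6% and 9.8% of all 2715 features were. The higher one was KCND2, at 819 CPM in EOM from 120 UMIs and 12.8 in QFM from 1 UMI (6.01, 3.5 to 11.32), and at least 3.15 with thinned counts, where QFM had no UMI and the floor of 3 UMIs was used. The EOM glial level of KCND2 was 84.7% of the myonuclear level, while KCNIP4 stood at 9.09% and the myofibre check genes at 25.7%. KCND2 was seen in 35.0% of EOM glial nuclei (28.6% thinned, median 2072 UMIs). The lower ones were KCNMB4 and KCNAB1, which was at 81.9 and 319 CPM (-1.96). The 25 KCNAB1 UMIs of QFM glial nuclei came from 8.33% of 24 nuclei, and the mean of per-nucleus CPM gave -0.36. Fibroblast markers summed to 389 CPM in EOM and 1416 in QFM glial nuclei, and their part in the KCNAB1 value was not tested.

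The table of EOM cells names no MYH3 or MYH7, so no myonuclei were called there. For 1872 mural, 1576 endothelial and 291 glial cells, values of members named in nuclei are set side by side with those in nuclei because material and annotation differ. In mural cells KCNAB1 was at 244 CPM, KCNJ8 at 27.1, KCNE4 at 22.0 and KCNT2 at 3.43, so KCNT2 was far lower than its 543 CPM in mural nuclei. In glial cells KCNJ10 was at 76.0 CPM, KCNMB4 at 67.5, KCNH8 at 61.9, KCNIP1 at 59.1, KCNA2 at 31.0 and KCNA1 at 22.5, and KCNK12 was at 14.1 from 5 UMIs. KCND2 was at 239 CPM in glial cells, 5.49 in mural and 6.12 in endothelial cells, where the nuclei had 819, 581 and 92.9. In endothelial cells KCNN4 was at 22.3 CPM and KCNMB4 at 18.4.

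Some members were seen mainly in cells, and the following were chosen after their values were seen. KCNMB1, the beta subunit of large-conductance channels in smooth muscle, was at 235 CPM in mural cells, against 4.01 and 15.1 in the mural nuclei of EOM and QFM. Its gene overlaps KCNIP1 in the reference annotation, so that reads could be split between them if strand was not used. The same limit holds for KCNJ1, which overlaps KCNJ5, and for KCNJ10, which overlaps KCNJ9. KCNA5 (56.6 CPM), KCNE2 (42.6) and KCNIP3 (22.6) were also seen in mural cells, and KCNQ5 (73.2) and KCNG1 (25.3) in glial cells. Of these, KCNA5, KCNIP3 and KCNG1 are among the 17 members with no symbol in the tables of nuclei.

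A list of 28 genes whose products work with potassium channels or set excitability was followed beside the members, and 22 of them have a symbol in the tables of nuclei. Over all myonuclei 11 of 19 measured were at least 2-fold higher in EOM and none lower, with a median of 1.37, where 32.9% of all features were higher and 9.26% lower and the median was 0.39. DPP6 (138 and 4.02 CPM, 5.10) and DPP10 (134 and 4.02, 5.06), both subunits of A-type channels, were among the higher ones, beside KCND2. LRRC52, a gamma subunit of large-conductance channels, was at 80.5 and 3.57 CPM (4.50), and the sulfonylurea receptor gene ABCC8 at 13.5 and 0.424 (4.99). The muscle chloride channel CLCN1 (408 and 307 CPM) and the sodium channel SCN4A (17.6 and 30.8) were within 2-fold over all myonuclei. ABCC9 was at 309 and 618 CPM, just within 2-fold. In the other comparisons of myonuclei, 9 of 18, 9 of 17, 4 of 18 and 4 of 17 measured partners were higher and 1, 3, 3 and 2 lower, in the order in which these comparisons were described above. Over all features 31.3%, 29.1%, 3.42% and 6.47% were higher and 10.2%, 10.3%, 7.52% and 10.5% lower. In MYH7-led nuclei DPP10 was at 1461 CPM in EOM and 3.92 in QFM (8.54). Between MYH15-led and MYH13-led nuclei DPP6 was 2.06 and DPP10 1.55. In the mural, endothelial and glial comparisons 6 of 11, 8 of 13 and 0 of 4 partners were higher in EOM and 1, 0 and 0 lower, where 10.4%, 11.5% and 12.6% of all features were higher and 13%, 6.3% and 9.8% lower.

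The rest of the family was low. Of 76 members in the tables of nuclei, 46 reached 5 CPM in some leading-chain, mural, endothelial or glial class and 30 did not, and the naming rules took in 39. The 7 that passed 5 CPM without being named by rule were KCNAB3, KCNE3, KCNG3, KCNMB1, KCNN1, KCNN4 and KCNRG, with highest levels between 6.71 and 15.1 CPM. No UMI was seen in these classes for 6 members, KCNA10, KCNJ15, KCNK4, KCNK16, KCNK18 and KCNS1. In EOM cells KCNA4, KCNE5, KCNK15 and KCNT1 had no UMI in mural, endothelial, glial, fibroblast or macrophage cells. Low levels here are not absence, since the median depth was 2811 UMIs per nucleus in EOM and 4508 in QFM.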

How the data were processed

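RNA was counted in 3 libraries, grouped by sample title: EOM cells (8979 barcodes, 12248405 UMIs), EOM nuclei (16491 and 61618999) and QFM nuclei (12503 and 72590186). The authors deposited raw UMI counts for each feature and barcode. Per the file headers, Cell Ranger 7.2.0 wrote the tables of nuclei. Seurat 5.2.1 is also listed in the submitters' processing notes. Genome build, annotation and the use of introns and strand in counting: not given in the sources used here.

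Filters asked for 200 genes, 500 UMIs and a mitochondrial share no higher than 10% (nuclei) or 20% (cells). Scrublet in scanpy 1.11.5 (expected rate 6%, seed 1) called 2496 (15.2%), 1866 (15.1%) and 188 (2.58%) doublets in EOM nuclei, QFM nuclei and EOM cells, which were removed. A leading-chain myonucleus carried at least 10 chain UMIs with 1 chain ahead and was not marker-positive. A marker-positive barcode carried at least 5 UMIs from at least 3 markers, more than from any other list, and under 10 chain UMIs. Counts were summed per class. CPM had exact Poisson intervals, shares Clopper-Pearson intervals and ratios conditional exact binomial intervals (SciPy 1.17.1), all at 95%. A class with 0 UMIs was compared at a floor of 3 UMIs. With 1 library per group no test was made.

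Named in myonuclei were members with at least 10 CPM in a leading-chain class of at least 50 nuclei. Named in mural, endothelial and glial barcodes were those with at least 20 CPM and at least 2-fold the myonuclei of the same library. KCNJ, KCNK and KCNA members needed 5 CPM and partners 10 CPM. Some genes that entered the counts are not reported here. The members, lists and rules were chosen with earlier results of these data known. The 8 comparisons were repeated under 12 alternatives. All 93 members were found by symbol in an NCBI gene table of assembly T2T-MFA8v1.1, used only for which genes overlap. Scripts were checked on simulated counts.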

Additional observations from a re-analysis of the deposited data

Results flagged for a closer look

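Some members went opposite ways in 2 settings of the same contrast, or for KCND3 in 2 different contrasts, each by at least 2-fold with counting intervals that exclude 0. The differences between the settings were not tested, since each muscle has 1 library. KCNB2 was higher in EOM than in QFM in myonuclei (log2 ratio 2.80) and lower in mural nuclei (-3.91), the latter with 1 UMI in EOM. KCNMB4 was higher in EOM myonuclei (1.81), where it was under 5 CPM on average, and lower in EOM in endothelial (-1.03) and glial nuclei (-1.27), where its levels were 34.7 to 395 CPM. KCND3 was lower in MYH7-led than in MYH13-led nuclei within EOM (-3.33) and higher in MYH7-led than in MYH3-led nuclei within QFM (1.46), where its levels were 2.44 and 0.890 CPM. The KCND3 contrasts have different second classes, since QFM had no MYH13-led nuclei, and are not 1 contrast that reverses.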

How the results depend on the processing

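The counts of members at least 2-fold apart were recomputed under 12 alternatives, 1 at a time. Thinned to 1000 UMIs, they fell from 22 to 12 (MYH7-led EOM over QFM), 20 to 12 (MYH15-led over MYH13-led), 14 to 8 (MYH7-led over MYH3-led in QFM), 9 to 3 (mural) and 11 to 5 (endothelial), with fewer members measured. With every member of at least 1 UMI the same classes gave 58, 29, 30, 33 and 36, and glial nuclei 14 in place of 3. At 1 UMI a gap can rest on the floor of 3 UMIs alone. KCNE2 in MYH7-led nuclei, at 0 UMIs in EOM and 1 in QFM, had a log2 ratio of 6.27. Shares over all features are not given for these alternatives, so their counts are not read as results about the members. With members of at least 100 UMIs only, all myonuclei gave 23 (of 38), MYH13-led EOM over MYH3-led QFM 18 (of 35), and the other comparisons, in the order above with glial nuclei last, 10, 11, 7, 2, 4 and 1. No other alternative moved a count by over 1.5 times, and among the members at least 2-fold apart, scaling by the median of ratios moved the share that was higher by less than 10 percentage points in each comparison. Of 1768 values of named members over 167 pairs of member and comparison, 1547 stayed inside the counting interval, 220 moved out of it and 1 turned sign, KCNJ6 in MYH15-led over MYH13-led nuclei, at -0.10 with 3 UMIs from 2 markers. Of 1000 such values for pairs at least 2-fold apart, 981 stayed so. The counting intervals leave out the spread between animals, which 1 library per group cannot give, so no library could be left out. No paired analysis was possible because each group has 1 library.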

Other observations

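Other marker-positive nuclei held members at levels not described above. In satellite-marker nuclei (104 in EOM and 272 in QFM), KCNIP4 was at 804 CPM in EOM and 4782 in QFM, the reverse of its order in myonuclei. KCNQ5 was at 415 and 88.1 CPM there, KCNQ1 at 165 and 225, and KCNN3 at 152 and 219.6. In macrophage-marker nuclei (271 and 220), KCNQ1 was at 216 and 349 CPM, its subunit gene KCNE3 at 97.3 in QFM, KCNAB2 at 99.8 and 157, and the two-pore genes KCNK13 at 86.3 and 61.3 and KCNK6 at 38.9 and 36.0. KCNJ1, a rectifier best known from kidney whose gene overlaps KCNJ5, was at 89.6 CPM in EOM macrophage-marker nuclei.

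In fibroblast-marker nuclei (1272 and 933), KCNAB1 was at 2092 and 1643 CPM, KCNT2 at 113 and 36.1, KCNQ1 at 91.3 and 50.6, KCNK1 at 29.2 and 47.2, KCNH1 at 27.1 and 28.7 and KCNIP1 at 12.3 and 52.1. In EOM cells the macrophage class held KCNQ1 at 50.9 CPM, KCNAB2 at 38.7, KCNE3 at 25.5 and KCNK13 at 21.0, and the fibroblast class KCNG2 at 42.2, KCNJ12 at 28.0 and KCNK1 at 25.8. These genes were chosen after their values were seen.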
